A study of Mus musculus with 42 samples.

Results

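The Six-family, Eya and Dach proteins are the nuclear partners of the Pax genes in muscle precursors, and 9 of their genes were followed in mouse myogenic precursors in which Pax7 can be switched on and off. The genes were Six2, Six4, Six5, Eya1, Eya2, Eya3, Eya4, Dach1 and Dach2, taken as the rows with these symbols among the 24466 gene symbols of the RNA-seq count tables. RNA was sequenced from 3 replicates of iPax7 cells grown with doxycycline (+Dox), at 0.75 µg/ml as some labels and the study's methods give it, 2 replicates of iPax7 cells kept for 3 days without it (-Dox), and 3 replicates of satellite cells sorted from Pax7-ZsGreen reporter mice. iPax7 cells derive from mouse embryonic stem cells with a Dox-inducible Pax7 transgene, were sorted as PDGFαR+Flk-1- cells from embryoid bodies and were expanded with FGF, so the +Dox and -Dox groups share a cell source and FGF and differ in the inducer. Satellite cells are the resident stem cells of adult muscle, and no age or sex is given for the mice in the sources used here. The same populations were profiled by ATAC-seq, with iPax7 cells at 12 h and 24 h without Dox and iPax7 myotubes. ATAC-seq also covered C2C12, a mouse myoblast line, as unmodified myoblasts, lines with Flag alone or Flag-tagged Pax7, and myotubes. Myotubes of both origins were labelled with 2% horse serum. Histone ChIP-seq was used from iPax7 and C2C12 cells. A Pax7 ChIP-seq list of +Dox cells was also used. That list holds peaks seen in at least a pair of +Dox samples and in no -Dox sample.

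Six-family proteins are homeodomain transcription factors that bind MEF3 elements in muscle promoters such as that of Myog. Eya proteins carry no DNA-binding domain of their own: they are recruited by Six-family factors, act as co-activators and are also protein tyrosine phosphatases. Dach proteins are relatives of the Ski and Sno co-repressors and oppose Eya and Six-family proteins at shared targets. With Pax genes these families form a network known from the insect eye and from the somite, where it acts on the muscle regulatory factors.

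Counts on genes ran from 39010958 to 54674619 per library, and all 3 satellite cell libraries lay below every iPax7 library. Reads with more than a single alignment, which were not counted, made up 23.6 to 30.7% in satellite cells and 7.11 to 7.6% in iPax7 cells. The labelled cell states were checked first. Pax7 had 11610, 12759 and 14130 normalized counts in +Dox, 220.6 and 269.5 in -Dox, and 3926, 5456 and 8504 in satellite cells. All 6 differentiating muscle markers were detected in both -Dox libraries, with a summed level of 35981 to 36825 CPM (counts as a share of the library's scaled total), against 204 to 283 CPM in +Dox. All 6 were also detected in every satellite library, at 192 to 324 CPM in sum. Of the 7 satellite markers, 6 were detected in every +Dox and every -Dox library. Their sum was 3940 to 5565 CPM in +Dox and 1033 to 1132 CPM in -Dox. Satellite cells carried all 7 satellite markers, at 14925 to 22098 CPM in sum. They also carried all 5 endothelial markers (289 to 423 CPM in sum, against at most 3.52 CPM in iPax7 libraries, where Cdh5 was at 0), all 4 fibro-adipogenic markers (868 to 1314 CPM, against at most 206 CPM), all 3 Schwann cell and all 3 tendon markers, and 3 of 4 blood markers in every library. Cycling markers summed to 1051 to 1377 CPM in +Dox, 110 to 112 CPM in -Dox and 24.2 to 43.7 CPM in satellite cells. In bulk RNA, fewer cells of a type and less RNA per cell cannot be told apart. Within groups, the satellite libraries correlated least with each other (Pearson r across genes of 0.928, 0.929 and 0.945). In +Dox, replicate 3 correlated less with replicates 1 and 2 (0.96 and 0.967) than these did with each other (0.988). This +Dox replicate 3 also had the lowest Six4 and Eya4 of the 8 libraries.

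Across the 9 genes, the satellite cells and the iPax7 cells differed in which Eya genes they expressed most. Eya2 and Eya3 were higher in +Dox cells than in satellite cells, with Six2, whereas Eya1 and Dach1 were higher in satellite cells. A gene was called when edgeR's quasi-likelihood test gave a Benjamini-Hochberg adjusted p under 0.05 over the 14836 genes tested and the change was at least 2-fold. Of the 9 members, 8 passed the filter on low counts, and Dach2 did not, having no read in any library. Between +Dox and satellite cells 5 of the 8 were called, 3 higher in +Dox, where 18.2% of all tested genes were called, and 2 lower, where 23.9% were. Between -Dox and satellite cells 3 were called, 2 higher in -Dox (17.2% of all tested genes) and 1 lower (20.4%). Dach1 was the 1 lower in -Dox and was among the 2 lower in +Dox. It passed the filter on low counts through the satellite libraries alone, so it adds no support to these counts. Between -Dox and +Dox none was called by edgeR, against a background of 4.63% higher and 3.01% lower in -Dox. In that comparison 1 member, Eya1, had an unadjusted p under 0.05, and DESeq2 called the same gene. With 8 tested genes, these counts are read beside the background only.

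**Figure D1:**
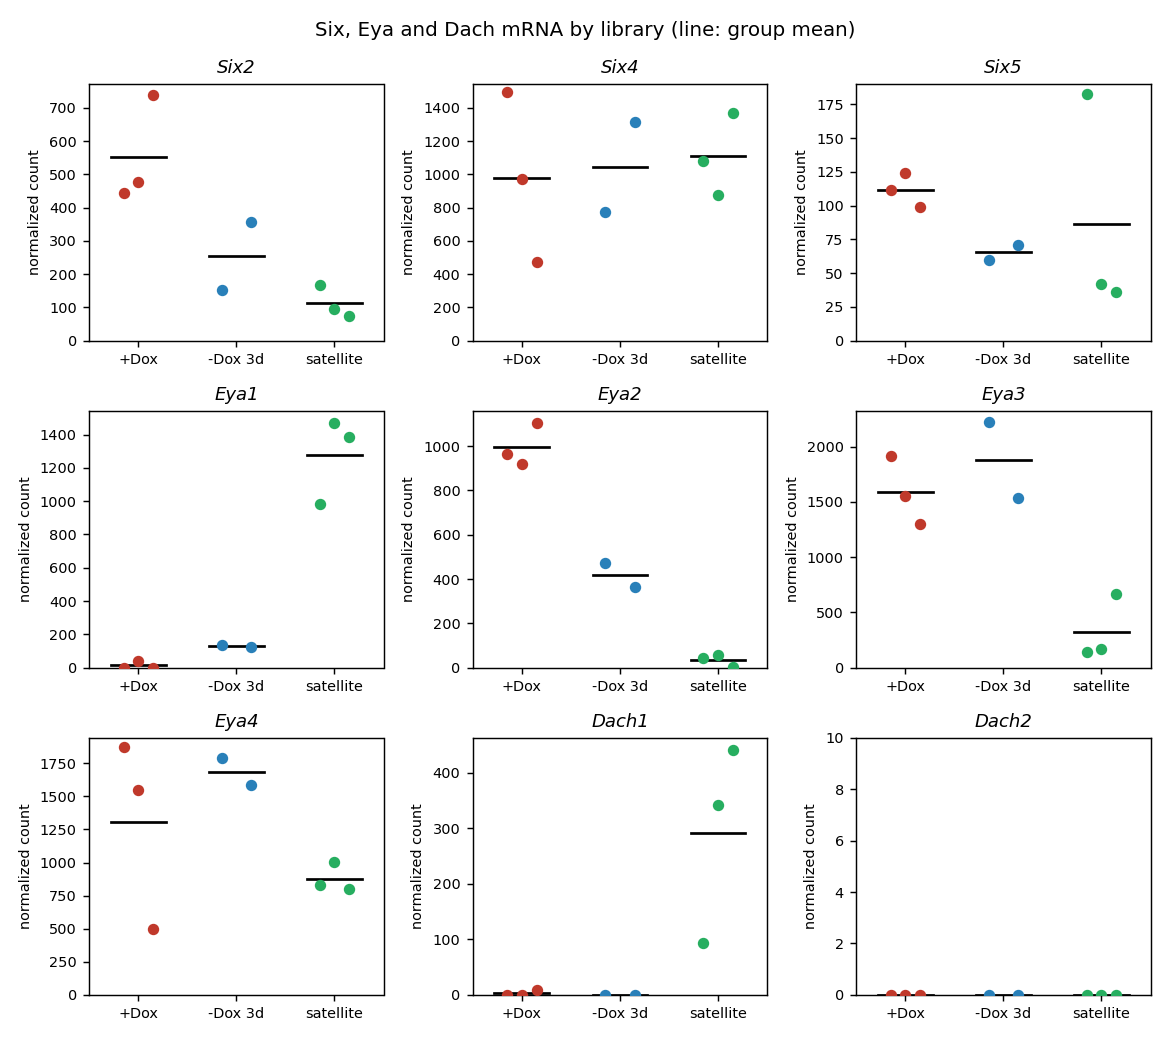
Normalized counts (vertical axes, linear and starting at 0) of the 9 genes in each library of the 3 groups, with a line at each group mean. Eya1 and Dach1 sit near 0 in +Dox and are highest in satellite cells, Eya2 has means of 996.2 in +Dox and 35 in satellite cells, and Six4 overlaps in all 3 groups.

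Six2, a homeodomain factor best known for holding kidney nephron progenitors undifferentiated, lies on chromosome 17 from 86083608 to 86087594 of mm9 (NCBIM37), on the minus strand. It had 443.2, 475.4 and 739.4 normalized counts in +Dox, 151.6 and 356.3 in -Dox, and 73.86, 93.83 and 168.5 in satellite cells. The +Dox libraries were thus above all others, and the -Dox and satellite libraries overlapped. The difference between +Dox and satellite cells was 2.3 on the log2 scale (standard error 0.589, edgeR adjusted p = 0.0114), or 4.93-fold. The -Dox mean was 2.18-fold below the +Dox mean, which did not pass the test (edgeR adjusted p = 0.369), and the 1.18 log2 difference between -Dox and satellite cells did not either (adjusted p = 0.155). Both depended on single -Dox libraries: the difference from +Dox was -0.634 without -Dox replicate 1 and -1.86 without replicate 2, and that from satellite cells was 1.67 and 0.49.

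Six2 was also the member with the most Pax7 sites. The study's way of assigning sites was followed, giving each of the 2455 sites to the gene with the nearest start site. By that rule 9 sites fell to 4 members: 4 to Six2, 3 to Eya4, 1 to Eya1 and 1 to Eya2. Over all 20478 genes with a position, 8.82% had a site and 0.728% had 3 or more. Six2 site 1 was centred 2.62 kb into the gene, in the intron, with its strongest +Dox ATAC summit in exonic sequence. Site 2 was centred 1.15 kb upstream of the start site, and sites 3 and 4 lay 116.0 and 193.0 kb upstream, outside annotated genes. Site 3 held the one match to a Pax paired domain core among the 9 sites. Its sequence is shown for that reason, as 200 bases around the ATAC summit (chr17:86203110-86203309, mm9, plus strand), with the match in capitals.

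Six2 site 3: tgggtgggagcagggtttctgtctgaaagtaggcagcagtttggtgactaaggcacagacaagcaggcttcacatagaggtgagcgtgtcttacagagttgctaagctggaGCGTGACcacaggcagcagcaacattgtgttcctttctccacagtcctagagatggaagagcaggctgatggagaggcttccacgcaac

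The core searched was GTCACGC on either strand, which 2.97% of the same windows at all Pax7 sites held. At this site the ATAC peak had a fold enrichment over background of 16.9 in +Dox, 7.59 at 12 h without Dox, 5.55 at 24 h and 9.34 at 3 days. Satellite cells had a peak there too (6.84-fold), and so had C2C12 myoblasts that express Flag-tagged Pax7 (7.65-fold). Neither unmodified C2C12 myoblasts nor the Flag-only control line had one. Site 2 was the most enriched of the 9 in +Dox, at 77.2-fold, and lay within the same ATAC peak as the Six2 start site. That peak was still at 69.7-fold after 3 days without Dox and at 24.4-fold in satellite cells, but no C2C12 population had a peak there. Site 4 had a 7.58-fold peak in +Dox, none at 12 h and 24 h and one of 3.42-fold at 3 days. The 12 h list held 112586 peaks in all, against 135564 in +Dox. Start-site peaks of Six4, Six5 and Eya3, with no Pax7 site assigned, were also lower at 12 h (24.8, 28.4 and 21.8-fold) than in +Dox (37.4, 50.1 and 39.3-fold). Those of Eya2, Dach1 and Dach2 were not lower. The part of such a difference between files in the 12 h values of any site was not tested.

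Six4, which binds the same MEF3 elements in muscle genes, lies on chromosome 12 from 74201246 to 74214401. It had 469.9, 969.3 and 1494 normalized counts in +Dox, 770.1 and 1314 in -Dox, and 876.6, 1082 and 1370 in satellite cells. The 3 groups overlapped throughout. Its log2 differences were 0.092 between -Dox and +Dox, -0.182 between +Dox and satellite cells, and -0.0904 between -Dox and satellite cells, with standard errors of 0.45 to 0.504 and edgeR adjusted p of 0.771 or more. The sign of each changed when single libraries were left out, so no direction is given for Six4. No Pax7 site was assigned to it, and the nearest was 236.0 kb from its start site.

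Six5, the neighbour of the myotonic dystrophy kinase gene Dmpk, lies on chromosome 7 from 19679893 to 19683694. It was the lowest of the 3 Six-family genes with reads. Its values were 99.26, 111.2 and 124.4 normalized counts in +Dox and 59.74 and 71.08 in -Dox, which did not overlap. In satellite cells replicate 1 had 183 and the other 2 had 35.61 and 41.55. None of its 3 comparisons passed the test, and the edgeR adjusted p were 0.757, 0.766 and 0.774. Dmpk itself had 337.3, 426.5 and 576.4 normalized counts in +Dox, and satellite libraries had 1325, 1694 and 2401, a log2 difference of -2.02 (edgeR adjusted p = 0.00206). It is named here after its values were seen.

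Per kilobase of exon, the scale on which genes can be compared, the 3 Six-family genes together had 10.0 ± 0.784 CPM per kb in +Dox (SD, n = 3), 6.95 ± 2.96 in -Dox (SD, n = 2) and 5.94 ± 1.3 in satellite cells (SD, n = 3). Six2 made up 55.6% of that sum in +Dox (40.8 to 74.8%), 35.4% in -Dox (31.3 to 39.5%) and 18.8% in satellite cells (12 to 23.8%). Six4 made up 36.2%, 57.1% and 71.1%. The Six2 shares did not overlap between the 3 groups. Shares are of these 3 genes alone.

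Eya1, a co-activator and phosphatase with roles in ear, kidney and limb muscle development, lies on chromosome 1 from 14159035 to 14300281, on the minus strand. It showed the largest spread over the groups of the 4 Eya genes. It had 0.7511, 39.99 and 0.9106 normalized counts in +Dox replicates 1, 2 and 3, which are 1, 54 and 1 reads. In -Dox it had 124.6 and 138.8, and in satellite cells 983.4, 1387 and 1469. No 2 groups overlapped, and the order was +Dox, -Dox, satellite cells. The difference between +Dox and satellite cells was -6.5 on the log2 scale (standard error 1.29, edgeR adjusted p = 0.00327).

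The steps on either side of -Dox depended on single libraries and on the tool. The difference between -Dox and +Dox was 3.22 on the log2 scale (standard error 1.18), a ratio of means of 9.49, with an edgeR adjusted p of 0.144. Without +Dox replicate 2 it was 7.13 (adjusted p = 0.00131), and DESeq2 gave 3.31 (adjusted p = 0.0312). Over all alternatives this adjusted p ran from 0.00131 to 0.377. The step from -Dox to satellite cells was 3.28 in size, with satellite cells higher (adjusted p = 0.0709). It was called by DESeq2 (adjusted p = 0.01), in the fit of these 5 libraries alone (0.00247) and in each fit that left out 1 +Dox replicate (0.00222 to 0.0456), over a range of 0.00222 to 0.248. The difference between +Dox and satellite cells became -10.4 without +Dox replicate 2 and was called in every fit.

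At the Eya1 gene, 1 Pax7 site was centred 3.58 kb inside the first part of the gene, in an intron. Its ATAC peak was called with Pax7 and not without it in both iPax7 and C2C12 cells. This site had an ATAC peak of 10.2-fold enrichment in +Dox cells and none at 12 h, 24 h or 3 days without Dox or in iPax7 myotubes. It had a peak of 10.3-fold in C2C12 cells with Pax7-Flag and none in the control line, and a peak of 4.88-fold in satellite cells. In C2C12 cells H3K27Ac, H3K4me1 and H3K4me3 were called there in the control line as well as with Pax7-Flag. In +Dox cells it lay in H3K4me1 and H3K27me3 regions, the marks of enhancers and of Polycomb repression, and in no H3K27Ac region, the mark of active elements. It was the 1 of 9 member sites in an H3K27me3 region, against 4.97% of all Pax7 sites. At 3 days without Dox none of the 4 histone marks was called there.

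The Eya1 start site differed in the same mark. H3K27me3 regions covered 85.8% of the window from 1 kb before to 1 kb after it in +Dox and 1.45% in -Dox, and over the whole gene 9.62% and 0.838%. The mean over all genes was 6.29% of the gene in +Dox and 5.69% in -Dox. H3K4me3 covered 46.9% and 57.1% of the start window, H3K27Ac covered none in either state, and H3K4me1 covered 60.7% in +Dox and none in -Dox. The H3K4me3 list held 94067 regions in +Dox and 214172 in -Dox. Over all genes the mean share of the whole gene in H3K4me3 regions was 12.6% and 19.0%, so the H3K4me3 values are not read as a gain at Eya1. The ATAC peak at the start had a fold enrichment of 10.8 in +Dox, 8.53 at 12 h, 18.3 at 24 h, 20.4 at 3 days and 31.4 in satellite cells. Region lists were made from merged replicates, so these values carry no replicate error and no test. Fold enrichment also depends on the depth of each file, which the lists do not give.

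**Figure D2:**
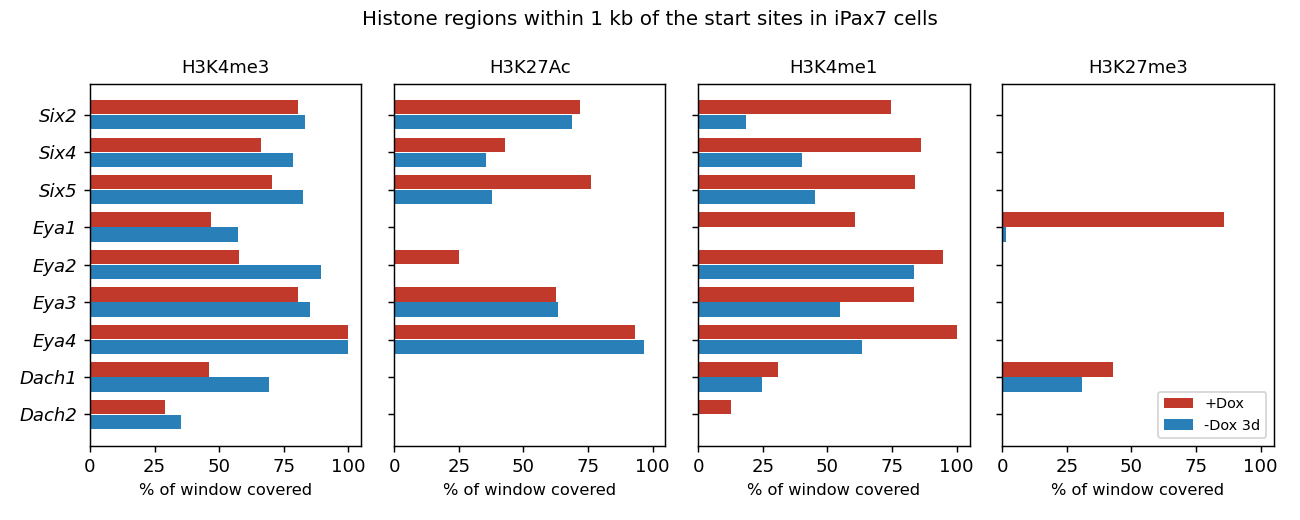
Share of the window within 1 kb of each gene's start site (horizontal axes, percent) that lay in a called region of 4 histone marks, in +Dox (red) and -Dox 3 day (blue) iPax7 cells. H3K27me3 was called at Eya1 and Dach1 alone of the 9 genes, and at Eya1 its share was 85.8% in +Dox and 1.45% in -Dox.

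Eya2, a co-activator that Six-family factors carry into the nucleus, lies on chromosome 2 from 165480798 to 165597227. It ran in the order opposite to Eya1, with 920.5, 964.5 and 1104 normalized counts in +Dox, 365.5 and 472.4 in -Dox, and 44.76, 56.3 and 3.957 in satellite cells. No 2 groups overlapped. The +Dox level was 28.5-fold that of satellite cells, 4.83 on the log2 scale (standard error 0.812, edgeR adjusted p = 0.00134), and the -Dox level was 12.0-fold that of satellite cells, 3.58 on the log2 scale (standard error 0.803, adjusted p = 0.00705). Both calls were made in every alternative. The -Dox mean was 2.38-fold below the +Dox mean, which edgeR did not call over all 8 libraries (adjusted p = 0.424). In the fit of the 5 iPax7 libraries alone the same difference of -1.25 had an adjusted p of 0.0275, over a range of 0.0275 to 0.794 among the alternatives. Its satellite values rest on 34, 42 and 3 reads.

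The Pax7 site nearest to Eya2 lay 54.3 kb upstream, outside annotated genes. It is shown because Eya2 was the member furthest above satellite cells (chr2:165426526-165426725, mm9, plus strand). It held none of the 5 motifs searched, which says only that those letters are not in this window.

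Eya2 site 1: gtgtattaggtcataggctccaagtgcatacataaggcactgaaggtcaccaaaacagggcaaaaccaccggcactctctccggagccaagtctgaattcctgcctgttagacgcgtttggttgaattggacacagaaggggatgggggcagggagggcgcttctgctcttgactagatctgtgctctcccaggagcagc

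Its ATAC peak was 9.81-fold enriched in +Dox, 3.27-fold at 12 h, 4.07-fold at 24 h, 3.79-fold at 3 days and 4.66-fold in iPax7 myotubes. No peak was called there in satellite cells or in any of the 4 C2C12 populations. H3K27Ac and H3K4me1 regions covered the site in iPax7 cells with and without Dox. In C2C12 cells both marks were called with Pax7-Flag and neither in the control line. At the Eya2 start site, H3K27Ac covered 25.3% of the window in +Dox and none in -Dox, and an ATAC peak was called in all 4 iPax7 time points (4.99 to 8.76-fold) but not in satellite cells.

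Eya3, a broadly expressed co-activator of the family, lies on chromosome 4 from 132194902 to 132280680. Its levels were 1295, 1554 and 1910 normalized counts in +Dox, 1533 and 2219 in -Dox, and 139.5, 167.6 and 663.4 in satellite cells. The iPax7 groups overlapped, and all 5 of their libraries were above the 3 satellite libraries. Compared with satellite cells, Eya3 was 4.9-fold higher in +Dox (log2 2.29, standard error 0.588, edgeR adjusted p = 0.0115) and 5.8-fold higher in -Dox (log2 2.54, standard error 0.629, adjusted p = 0.0112). Satellite replicate 3 set the size of both: without it they were 3.36 and 3.61 on the log2 scale. The -Dox call was lost without -Dox replicate 1 (adjusted p = 0.0697, over a range of 0.000483 to 0.0697). No Pax7 site was assigned to Eya3, and the nearest was 891.0 kb away. Its start site had ATAC peaks in all 10 populations.

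Eya4, which is linked to inherited hearing loss and heart muscle disease, lies on chromosome 10 from 22823974 to 23069701, on the minus strand. It had 1550 and 1873 normalized counts in +Dox replicates 2 and 1 but 499.9 in replicate 3. In -Dox it had 1584 and 1787, and in satellite cells 800.6, 829.4 and 1005. The +Dox range therefore enclosed both other groups, while the -Dox libraries were above the satellite libraries. None of its comparisons was called. The log2 differences were 0.366 between -Dox and +Dox (adjusted p = 0.767), 0.574 between +Dox and satellite cells (adjusted p = 0.322) and 0.94 between -Dox and satellite cells (adjusted p = 0.153), by edgeR.

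Eya4 held 2 Pax7 sites in introns, 223.0 and 168.0 kb downstream of the start site, and site 3 lay 163.0 kb upstream, outside annotated genes. Site 1 is shown as the distal site with the highest ATAC enrichment in +Dox cells (chr10:22846493-22846692, mm9, plus strand), and it too held none of the 5 motifs.

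Eya4 site 1: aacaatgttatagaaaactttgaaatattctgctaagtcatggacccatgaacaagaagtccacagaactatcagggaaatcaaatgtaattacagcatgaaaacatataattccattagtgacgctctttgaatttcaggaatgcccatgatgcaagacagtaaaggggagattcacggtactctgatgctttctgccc

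Its peak was 17.0-fold enriched in +Dox, absent at 12 h, 3.33-fold at 24 h and absent at 3 days. It was present in satellite cells (5.66-fold) and in C2C12 cells with Pax7-Flag (6.64-fold) and absent from the control line. H3K27Ac was called there in +Dox and not in -Dox, and in C2C12 cells with Pax7-Flag and not in the control line. Site 2 was weak in +Dox (2.5-fold) and was called in myotubes of both origins, at 9.07-fold in iPax7 myotubes and 12.9-fold in C2C12 myotubes. Site 3 had peaks in +Dox (9.3-fold) and satellite cells (4.3-fold) alone among the 10 populations. The Eya4 start site kept H3K27Ac over 93.4% of its window in +Dox and 96.8% in -Dox.

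On the per kilobase scale, the 4 genes together had 20.3 ± 4.11 CPM per kb in +Dox (SD, n = 3), 19.4 ± 3.18 in -Dox (SD, n = 2) and 12.1 ± 1.99 in satellite cells (SD, n = 3). Eya1 made up 0.322% of the sum in +Dox (0.0151 to 0.923%), 3.31% in -Dox (3.1 to 3.51%) and 50.9% in satellite cells (48.5 to 53.7%). Eya2 made up 39.6% in +Dox (31 to 53.7%), 16.7% in -Dox (16.5 to 16.9%) and 2.35% in satellite cells (0.231 to 3.53%). Neither set of ranges overlapped. Eya4 had 30.8%, 44.1% and 37.1%, and its ranges in +Dox (15.8 to 39.2%) and satellite cells (30.4 to 42.6%) overlapped. Within +Dox cells the order of mean levels was Eya2, Eya4, Eya3 and Eya1, and the ranges of the first 3 overlapped. This order rests on +Dox replicate 3: in replicates 1 and 2 Eya4 (9.45 and 7.82 CPM per kb) was above Eya2 (7.47 and 7.13), and in replicate 3 it was below (2.52 and 8.55). Eya4 was also the highest of the 4 in both -Dox libraries. In satellite cells the order of mean levels was Eya1, Eya4, Eya3 and Eya2. There Eya1 at 6.19 CPM per kb (4.76 to 7.11) overlapped Eya4 at 4.43 (4.04 to 5.07) and the other neighbours did not overlap. Within each satellite library Eya1 was above Eya4 (4.76 and 4.18, 7.11 and 5.07, and 6.71 and 4.04 in replicates 1, 2 and 3). The shares are a description with no test. The summed endothelial, fibro-adipogenic, tendon (23.7 to 36.3 CPM, against at most 4.14 CPM) and Schwann cell markers (33.2 to 59.9 CPM, against at most 1.94 CPM) were, like Eya1, higher in satellite cells than in iPax7 cells. Single markers ran the other way: Ly6a had a mean of 5063 normalized counts in +Dox and 2623 in satellite cells, and Scx had 99.57 in +Dox, 169 in -Dox and 17.65 in satellite cells. The part of other cell types in the Eya1 level was not tested.

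**Figure D3:**
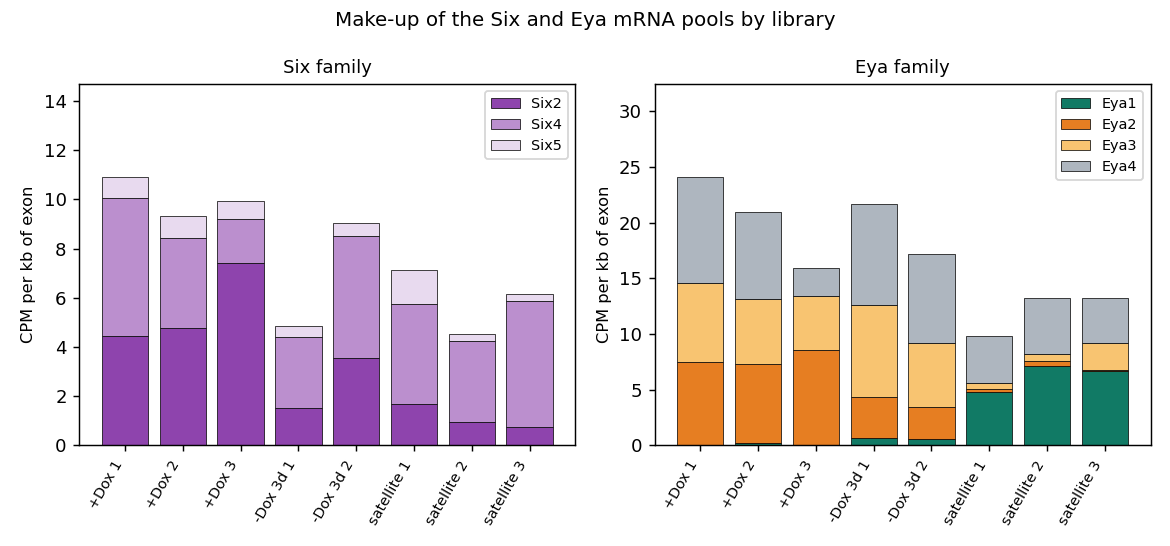
Level of each Six-family gene (left) and Eya gene (right) in each of the 8 libraries, stacked, in CPM per kilobase of exon. Eya1 makes up 48.5 to 53.7% of the Eya sum in satellite libraries and at most 0.923% in +Dox libraries, where Eya2 makes up 31 to 53.7%.

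Dach1, a co-repressor of the Ski family that counteracts Eya and Six-family proteins, lies on chromosome 14 from 98186066 to 98568984. It had 93.47, 341.8 and 440.5 normalized counts in satellite cells and no read in either -Dox library or in +Dox replicates 1 and 2. In +Dox replicate 3 it had 9 reads, or 8.195 normalized counts. The +Dox and satellite groups did not overlap, and Dach1 was -6.73 on the log2 scale in +Dox against satellite cells (standard error 1.77, edgeR adjusted p = 0.015), a ratio of means of 107. Dach1 passed the filter on low counts through the satellite libraries alone, where it had 71, 255 and 334 reads, so its calls are set by the group in which it is high and add no support to the counts of calls. Without +Dox replicate 3, the one +Dox library with reads, the fitted value was -11.2. Taking 3 counts per library as the most that a count of 0 allows, the satellite mean of Dach1 was at least 106-fold the -Dox mean (edgeR adjusted p = 0.0134). The bound covers the -Dox side only and not the spread of the satellite libraries. This second call was lost without either -Dox replicate (adjusted p = 0.0675 and 0.0669, over a range of 9.82e-06 to 0.0675). The summed endothelial, fibro-adipogenic, tendon, Schwann cell and blood markers were, like Dach1, higher in satellite cells than in iPax7 cells. Endothelial markers had 289 to 423 CPM against at most 3.52 CPM, and fibro-adipogenic markers 868 to 1314 CPM against at most 206 CPM. Single markers, Ly6a in +Dox and Scx in both iPax7 groups, ran the other way. The part of any of these cell types in the Dach1 level was not tested.

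The Dach1 start site carried an ATAC peak in all 4 iPax7 time points (3.19 to 6.91-fold) and a stronger one in satellite cells (12.7-fold). H3K27me3 regions covered 42.7% of its start window in +Dox and 30.8% in -Dox, and H3K27Ac covered none in either. Within 500 bases of the start site no member was in an H3K27me3 region in -Dox cells, so the -Dox share lies further out. Eya1, Eya2, Eya4, Dach1 and Dach2 overlap other annotated genes. The strand used in counting is not given in the sources used here, so reads from such a partner could not be told apart. No Pax7 site was assigned to Dach1, and the nearest was 539.0 kb away. Dach2, on chromosome X from 110411119 to 110949995, had 0 reads in all 8 libraries, which allows up to 0.047 to 0.085 CPM per library for counting error. Its start site nevertheless had ATAC peaks in iPax7 cells (7.4 to 12.5-fold) and in satellite cells (3.52-fold).

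**Figure D4:**
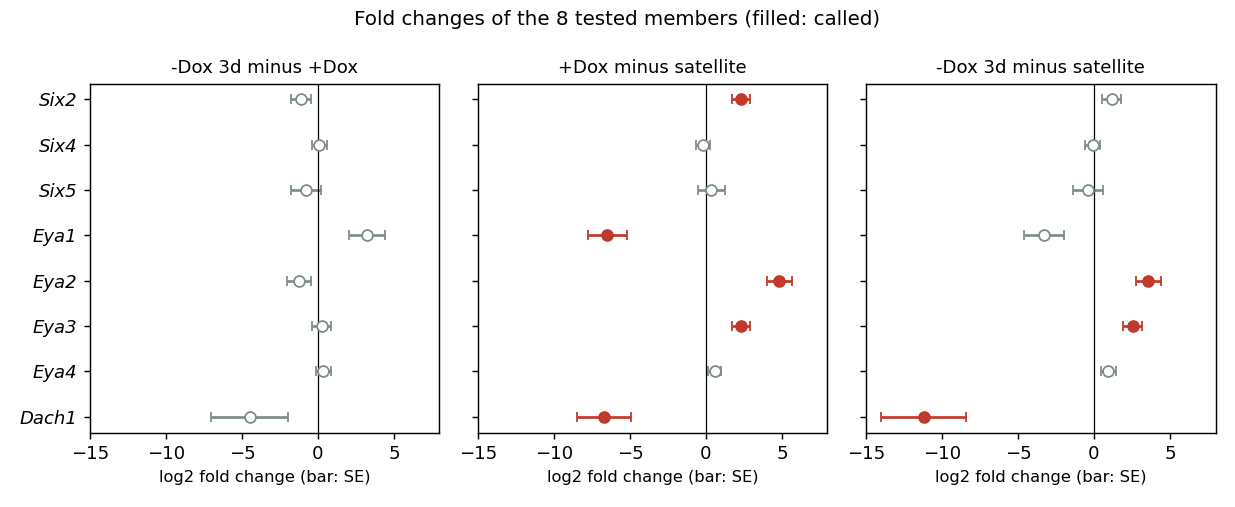
Log2 fold changes (horizontal axes) of the 8 tested genes in the 3 comparisons, with bars of 1 standard error; filled points were called by edgeR. Eya1 and Dach1 lie left of 0 and Six2, Eya2 and Eya3 right of 0 between +Dox and satellite cells, and no point is filled between -Dox and +Dox. The Dach1 point of the right panel rests on libraries at 0.

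Across the 9 Pax7 sites of these genes, all 9 overlapped an ATAC peak in +Dox cells, as did 95.4% of all 2455 sites. At 12 h without Dox 5 of the 9 no longer did, against 33.9% of the 2341 sites open in +Dox, and at 3 days 4 did not, against 29.2%. The 12 h list held the fewest peaks of the 4 iPax7 time points. Satellite cells had peaks at 5 of the 9 (53.0% of all sites). In C2C12 cells the number was 0 in the control line (38.6% of all sites) and 4 with Pax7-Flag (71.0%). H3K27Ac regions overlapped 8 sites in +Dox (73.2% of all) and 5 in -Dox (37.9%), and H3K4me1 regions 9 (91.2%) and 7 (73.8%). In C2C12 cells H3K27Ac went from 1 site to 6 and H3K4me1 from 3 to 7, while over all sites the shares went from 40.6% to 64.4% and from 44.8% to 83.2%. H3K27me3 regions overlapped 4 of the 9 in the C2C12 control line (6.48% of all sites) and 3 with Pax7-Flag (5.25%), with Six2 site 2 and the Eya2 site among them in both lines. The 4 sites open at every iPax7 time point were Six2 sites 1, 2 and 3 and the Eya2 site. The site list was built on Pax7 binding with and without Dox, and these counts carry no test.

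**Figure D5:**
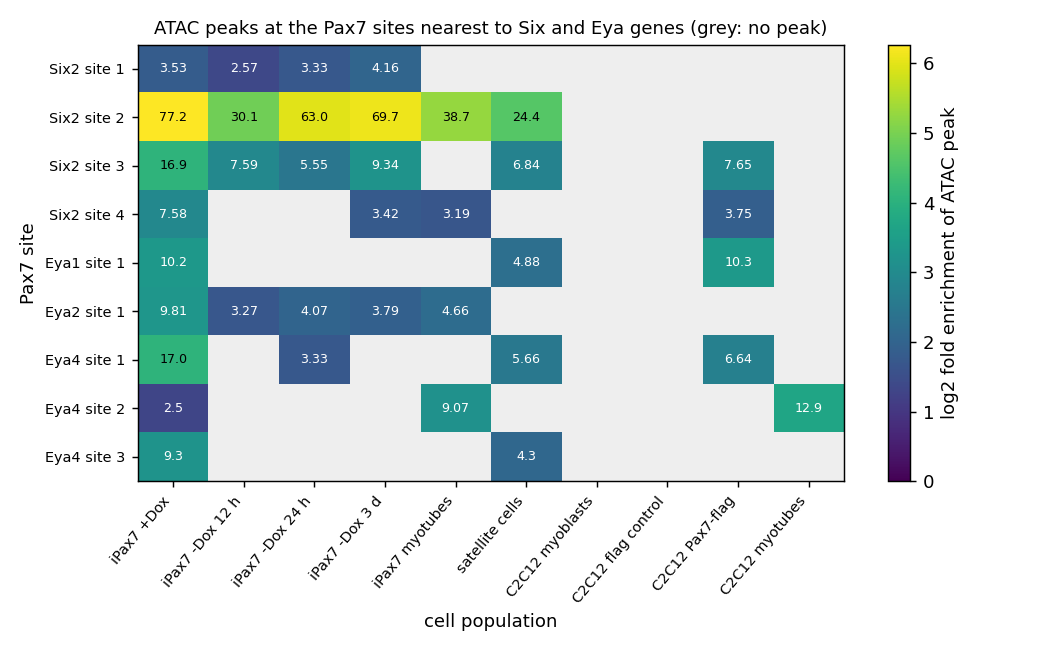
ATAC-seq peaks at the 9 Pax7 sites (rows) in 10 cell populations (columns), coloured by log2 fold enrichment of the strongest overlapping peak and labelled with the fold; grey marks no peak. All 9 rows are filled in +Dox cells and none in unmodified or Flag control C2C12 myoblasts, and 4 are filled with Pax7-Flag.

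Of the 5 motifs searched in the 200 base windows on both strands, the CAGCTG E-box was in 3 of the 9 windows, those of Eya4 site 3 and Six2 site 2 among them, against 22.6% of all sites. The MEF3 element TCAGGTT (2.73% of all sites), the AP-1 element TGANTCA (13.0%) and the paired homeodomain palindrome of TAAT and ATTA set 2 bases apart (1.02%) were in none. No window held more than 1 match.

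At the start sites, all 9 members had an ATAC peak within 1 kb in +Dox cells, where 62.1% of all genes had one, and 8 had one in satellite cells (57.6%). H3K4me3 was called at all 9 in +Dox (60.1% of all genes) and in -Dox (66.1%), and H3K27Ac at 6 (47.4%) and 5 (44.4%). The members without H3K27Ac in +Dox were Eya1, Dach1 and Dach2, which were also the ones with the lowest RNA there. H3K27me3 was called at 2 in each state (20.9% and 19.1%).

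Other genes of the network were taken from a list of 32 Pax partners, Six-family cofactors, Ski relatives, co-repressors, genes with described Six-family sites and neighbours of Six5, of which 29 were tested. From +Dox to -Dox 5 rose and 3 fell by edgeR, where 4.63% of all tested genes rose and 3.01% fell. Pax7, the induced gene itself, was among the 3 that fell, so that call was set by the design. The list's median log2 difference was 0.00201 beside -0.00492 over all tested genes. The 4 largest changes were those of Tnnc1, a troponin of slow fibres (8.44 on the log2 scale, edgeR adjusted p = 0.000894), Pax7 (-5.71, adjusted p = 8.08e-05), Myog, the regulator of myocyte differentiation (5.4, adjusted p = 7.75e-06), and Myf6 (5.14, adjusted p = 0.0422). Of the 12 genes with described Six-family sites 4 rose and 1 fell, and of 7 tested cofactors 1 rose, by edgeR and against the same shares over all genes. It was Sobp, a Six-family binding protein named here after its values were seen, with 25.54, 63.74 and 64.42 normalized counts in +Dox, 364.6 and 409 in -Dox and 413.4, 525.4 and 776.8 in satellite cells. Its rise from +Dox to -Dox was 2.91 on the log2 scale (standard error 0.6, edgeR adjusted p = 0.0179).

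Against satellite cells, 5 of the 29 were higher in +Dox and 12 lower, where 18.2% and 23.9% of all tested genes were. In -Dox 4 were higher and 13 lower, beside 17.2% and 20.4% of all tested genes. Pax7, whose level follows the inducer, was among the genes higher in +Dox and among those lower in -Dox. The comparisons share libraries and are given side by side only. The largest differences of +Dox cells from satellite cells were those of Myod1 (-6.84, edgeR adjusted p = 1.14e-05), Myf6 (-5.69, adjusted p = 0.00627), Gdnf, a neurotrophic factor (-5.08, adjusted p = 0.0164), and Tnnc1 (4.06, adjusted p = 0.00338). Myod1, the regulator of muscle commitment, had 20392 to 26074 normalized counts in satellite cells and 114.9 to 320.5 in iPax7 libraries. For -Dox cells they were Tnnc1 (12.5, adjusted p = 7.93e-05), Myod1 (-7.36, adjusted p = 4.02e-05), Myog (6.16, adjusted p = 3.73e-06) and Gdnf (-5.89, adjusted p = 0.0261). Among Ski relatives and co-repressors, the group to which the Dach proteins belong by function, 1 of 6 tested genes was higher and 3 were lower in +Dox than in satellite cells (18.2% and 23.9% over all tested genes), and 4 were lower in -Dox (20.4%).

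The genes most like each member over the 8 libraries were found by Pearson's r of log2(CPM + 1), as a description in which the libraries of a group are not independent points. Eya1 ran closest to Rcan1 (r = 0.997) and to Col5a1, a fibrillar collagen (r = 0.995). Eya2 ran closest to Ppp1ca (r = 0.995) and Acot7 (r = 0.994), and Eya3 to Impa1 (r = 0.992) and Cdh11 (r = 0.985). Dach1 ran closest to Usp18 (r = 0.997) and Rdh10 (r = 0.994), and Six2 to Haghl and Fam110a (r = 0.984 for each). Eya4 ran closest to Wwp2 (r = 0.981) and Ltn1 (r = 0.972), which were, like Eya4, lowest in +Dox replicate 3, at 1942 and 1663 normalized counts. Six4 ran closest to Hinfp (r = 0.924) and Pcdhga6 (r = 0.897), and Six5 to Grn (r = 0.951) and Tmem94 (r = 0.943).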

How the data were processed

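RNA was sequenced from 8 libraries (3 +Dox, 2 -Dox at 3 days, 3 satellite cell), and ATAC and histone region lists came from 10 and 16 further files and Pax7 sites from 1. The authors deposited raw read counts per gene. The submitters' processing notes name Trimmomatic 0.32, TopHat2 2.0 and HTSeq 0.6, and Bowtie2 2.2.6, Picard and MACS2 2.0.10, with mm9. The deposited ATAC lists hold a fold enrichment and a −log10 q-value per peak, called on merged replicates after shifting read ends for the Tn5 insert. The deposited histone lists were used by position, and the authors merged replicates before calling them with Qeseq. Merged lists give no replicate error.

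Counts on genes were 39010958 to 54674619 per library, after removal of 5 summary rows. They were scaled by TMM and tested with edgeR 4.0.16 (quasi-likelihood, filterByExpr, 1 mean per group, all 8 libraries, Benjamini-Hochberg over 14836 genes) in R 4.3.3. The test was checked on simulated counts, with changes planted only between -Dox and +Dox. They were planted only in genes of higher mean level than Six2, Six5 and Dach1. That check does not cover changes at such low levels, nor the comparisons with satellite cells, where the members were called. Called means an adjusted p under 0.05 and at least 2-fold. Standard errors are the log2 difference divided by the root of F. Normalized counts are counts scaled to a common effective size. A count of 0 allows 3 counts per library, for counting error only. Levels per kilobase used union exon lengths of GENCODE M1 on NCBIM37. Each Pax7 site went to the nearest start site; overlap was at least 1 base; start windows were 1 kb to each side. Motifs were searched in 200 bases with Python 3.11.15 and pysam 0.24.0.

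Alternatives were DESeq2 1.42.0, its size factors, other count filters, only the libraries compared, a replicate block, each library left out, and other overlap rules. The 9 members and the gene lists were chosen with earlier results of these data known. The members, Pax7, the 4 called network genes with the largest change per comparison, and the 2 genes most like each member are named. Nothing in the sources used here says that replicates were separate cultures, or which animals gave the satellite cells, so p-values measure the spread between these libraries, which may be technical. Replicate numbers come from the count tables' names. Other Six family genes and some site sequences are not reported here.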

Additional observations from a re-analysis of the deposited data

How the results depend on the processing

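Between -Dox and +Dox, 1 member was called by DESeq2 and 1 in the fit of only the libraries compared, in place of 0, and leaving out single libraries gave 0 to 1. Between -Dox and satellite cells leaving out single libraries gave 1 to 4 calls, with 1 without -Dox replicate 1, and between +Dox and satellite cells 5 in every such fit. Differences that changed sign when single libraries were left out ran from -0.326 to 0.543 (Six4), -0.0501 to 0.499 (Eya3) and -0.0217 to 0.728 (Eya4) between -Dox and +Dox, from -0.58 to 0.148 (Six4) and -0.0125 to 1.53 (Six5) between +Dox and satellite cells, and from -0.473 to 0.245 (Six4) and -0.782 to 0.757 (Six5) between -Dox and satellite cells. None of these was called, and the cause was not tested. Among the other alternatives 139 log2 differences kept their direction and their side of the threshold and 4 passed it newly.

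Sites assigned to members numbered 4 within 100 kb of a start site and 5 inside a gene or within 10 kb, in place of 9. With at least 50 percent of a site covered, ATAC peaks counted at 1 member site at 12 h, 3 at 24 h and 3 in satellite cells, in place of 4, 5 and 5. Over all sites the shares were 48.2%, 49.9% and 42.1%, in place of 63.2%, 63.4% and 53.0%. With 500 bases to each side, H3K27me3 start windows numbered 0 in -Dox, 0 in the C2C12 control and 1 with Pax7-Flag, in place of 2, 2 and 3. Over all genes the shares were 15.4%, 15.1% and 17.8%, in place of 19.1%, 17.9% and 20.6%.

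Same-numbered libraries showed little shared deviation over all genes (correlations from -0.108 to 0.0835). With 2 -Dox libraries their deviations mirror each other, and a shared preparation was not tested. The replicate block changed no call of a member; over all genes it gave 475 higher and 266 lower in -Dox against +Dox, beside 687 and 447 without it, 1040 and 977 by DESeq2 and 999 and 951 in the fit of only those libraries. The -Dox group has 2 libraries, which limits what its comparisons can detect.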
